A study of Mus musculus with 8 samples.

Results

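The genes described here are 40 genes of the cell division cycle and of DNA replication, taken by symbol from the array platform's annotation. Their products run from the cyclins D that open the cycle, through the MCM helicase that unwinds DNA, to the motors and ubiquitin ligase parts that separate chromosomes. A probe set that carries no gene symbol but that of a member was found for 39 of the 40 genes, 94 probe sets in all, out of 18193 genes with such a probe set in the whole table. Ccnb1 is not analysed here. A probe set was tested if 2 or more of the 8 arrays read it at or above their median, and 49 of the 94 passed. Where a gene kept several, the one with the highest mean stood for it, and that gave 27 tested members among 13008 tested genes.

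RNA came from whole hearts of male mice aged 6 to 8 weeks and was read on 8 one-colour Affymetrix arrays. The 4 groups hold 2 biological replicates each: MT-/- with DOX, MT-/- with saline, MT+/+ with DOX and MT+/+ with saline. MT-/- stands for null for the metallothionein genes Mt1 and Mt2, which encode small metal-binding proteins, and MT+/+ for the matching wild type. The saline mice labelled MT-/- carry the same genotype as those given DOX. DOX is doxorubicin, an anthracycline cancer drug that damages DNA by trapping topoisomerase II and is toxic to the heart. It was given as 1 intraperitoneal dose of 15 mg/kg, saline mice received the same volume of saline, and the hearts were collected on day 4. The sources used here give neither the background strain nor the form of the null alleles.

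Adult heart muscle cells rarely divide, so in a whole heart most dividing cells are fibroblasts, endothelial cells and blood-derived cells. In G1, cyclins D with CDK4 phosphorylate the retinoblastoma protein and release E2F factors, while inhibitors such as p27 (Cdkn1b) hold the kinases back. E2F then drives genes of replication. Later genes of mitosis carry promoter elements known as CCAAT boxes and cell cycle homology regions (CHR). Repressor complexes with RB-family members use the CHR in quiescent cells. With bulk tissue, fewer cells of a type and less RNA per cell cannot be told apart.

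Promoter windows are shown first for 4 of the members that were lower after DOX, because they hold the letters of these elements. RefSeq windows of GRCm38.p6, from 250 bases before to 50 after a gene start, were found for 31 of the 40 members. Capitals mark CCAAT, the CHR letters TTTGAA, and the E2F letters TTTCGCGC, TTTGGCGC, TTTCCCGC and TTTGCCGC, each on either strand. In Mcm6 a TTTGGCGC overlaps a TTTCGCGC of the other strand, so its capitals run together there, and in Ube2c CCAATTGG holds CCAAT on both strands.
Cdk1, chr10:69352863-69353162, minus strand: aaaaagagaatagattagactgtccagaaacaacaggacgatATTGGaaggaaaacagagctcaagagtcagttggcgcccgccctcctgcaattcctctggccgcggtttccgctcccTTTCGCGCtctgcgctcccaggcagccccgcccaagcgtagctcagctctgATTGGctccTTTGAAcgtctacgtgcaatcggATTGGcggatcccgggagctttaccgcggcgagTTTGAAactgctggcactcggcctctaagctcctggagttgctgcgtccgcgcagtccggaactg
Ube2c, chr2:164769679-164769978, plus strand: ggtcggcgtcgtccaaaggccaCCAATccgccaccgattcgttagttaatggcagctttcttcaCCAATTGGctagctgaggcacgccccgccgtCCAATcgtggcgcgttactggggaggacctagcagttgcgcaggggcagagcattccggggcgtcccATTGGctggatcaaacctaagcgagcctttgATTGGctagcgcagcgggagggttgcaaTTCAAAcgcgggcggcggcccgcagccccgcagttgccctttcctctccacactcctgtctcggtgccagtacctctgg
Mki67, chr7:135716330-135716629, minus strand: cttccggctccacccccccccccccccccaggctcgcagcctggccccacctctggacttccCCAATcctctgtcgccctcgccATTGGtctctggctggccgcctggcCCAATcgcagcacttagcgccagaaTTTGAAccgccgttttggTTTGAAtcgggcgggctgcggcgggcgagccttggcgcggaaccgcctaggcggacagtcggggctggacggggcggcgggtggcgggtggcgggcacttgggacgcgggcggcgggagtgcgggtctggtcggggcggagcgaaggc
Mcm6, chr1:128359656-128359955, minus strand: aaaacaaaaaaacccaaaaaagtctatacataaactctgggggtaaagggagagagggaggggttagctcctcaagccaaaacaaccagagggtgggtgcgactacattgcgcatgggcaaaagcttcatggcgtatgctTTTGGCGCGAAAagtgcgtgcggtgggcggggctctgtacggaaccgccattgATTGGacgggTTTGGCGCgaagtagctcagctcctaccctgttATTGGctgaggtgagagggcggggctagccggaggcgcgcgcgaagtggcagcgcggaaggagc

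CCAAT was found in 25 of the 31 members with a window, the CHR letters in 12 and the E2F letters in 6. Among all 32851 RefSeq windows of that length, 37.4% held CCAAT, 17.9% the CHR letters and 2.26% the E2F letters. CCAAT and the CHR letters stood in 1 window in 12 members, against 6.95% of all windows. Of the 6 members that were lower after DOX and have a window, 5 held CCAAT, 3 the CHR letters and 2 the E2F letters. Among 14 tested members with a window and no call, the counts were 12, 5 and 4, so the letters were found in both groups of members. A match is only a match of letters.

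The labelled genotype was checked through its target genes. Mt1 read 12549 and 12849.8 on the arrays labelled MT-/- DOX, against 4667 and 5322 on those labelled MT-/- saline. On the MT+/+ arrays it read 6735 and 9285 after DOX, against 3722 and 4034 under saline. Mt1 signal was thus present on every array labelled MT-/- and higher there by this probe set, by log2 0.50 averaged over treatments (adjusted p 0.0425). A dimmer Mt1 probe set stood at log2 -0.09 for the same difference (0.784). Mt2 read 2218 and 2213 on the arrays labelled MT-/- DOX, against 968 and 1018 on those labelled MT-/- saline. On the MT+/+ arrays it read 1210.5 and 2732 after DOX, against 452 and 485 under saline. Mt2 was thus also read on every array labelled MT-/-, but the second MT+/+ DOX array lay above both MT-/- DOX arrays, and the genotypes did not pass (log2 0.58, adjusted p 0.301). The sources used here do not say whether the probes lie in the altered stretch of the gene, so genotype directions below rest on the labels alone. Array medians lay between 80.1 and 87.5 intensity units before normalization. Cardiomyocyte markers were bright on all arrays, with summed intensities of 8 genes from 99741 to 104867.

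After DOX, 9 of the 27 tested members were lower and 1 was higher when the genotypes were averaged, by limma at an adjusted p under 0.05. Lower were the 3 cyclins D (Ccnd1, Ccnd2, Ccnd3), the replication helicase subunit Mcm6, cyclin A2 (Ccna2), Cdk1, and the mitotic genes Ube2c, Mki67 and Nusap1, and higher was the inhibitor Cdkn1b. Of all 13008 tested genes, 7.81% were lower and 6.98% higher. The median log2 change of the tested members was -0.20, against -0.01 for all tested genes. Of the 27, 6 passed the intensity filter on saline arrays only, namely Mcm5, Ccna2, Cdk1, Ube2c, Mki67 and Nusap1. A gene that passes in this way has to differ between the treatments, so the counts over tested members are a description. Just inside the filter, with 2 arrays at or above the median, were Mcm5 (percentiles 34.6 to 57.4 over the arrays), Ccna2 (15.8 to 58.2) and Ube2c (14.4 to 66.7). Just outside it, with 1 such array, were E2f1 (41.5 to 53.6) and Rrm2 (8.87 to 52.5). With no filter, 11 of the 39 members were lower and 1 higher, against 5.03% lower and 4.35% higher of 18193 genes. All 10 genes called with the filter were also called without it. On the same arrays 5 of 8 fibroblast markers and 7 of 8 macrophage markers were lower after DOX, and their part in these results was not tested.

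**Figure D1:**
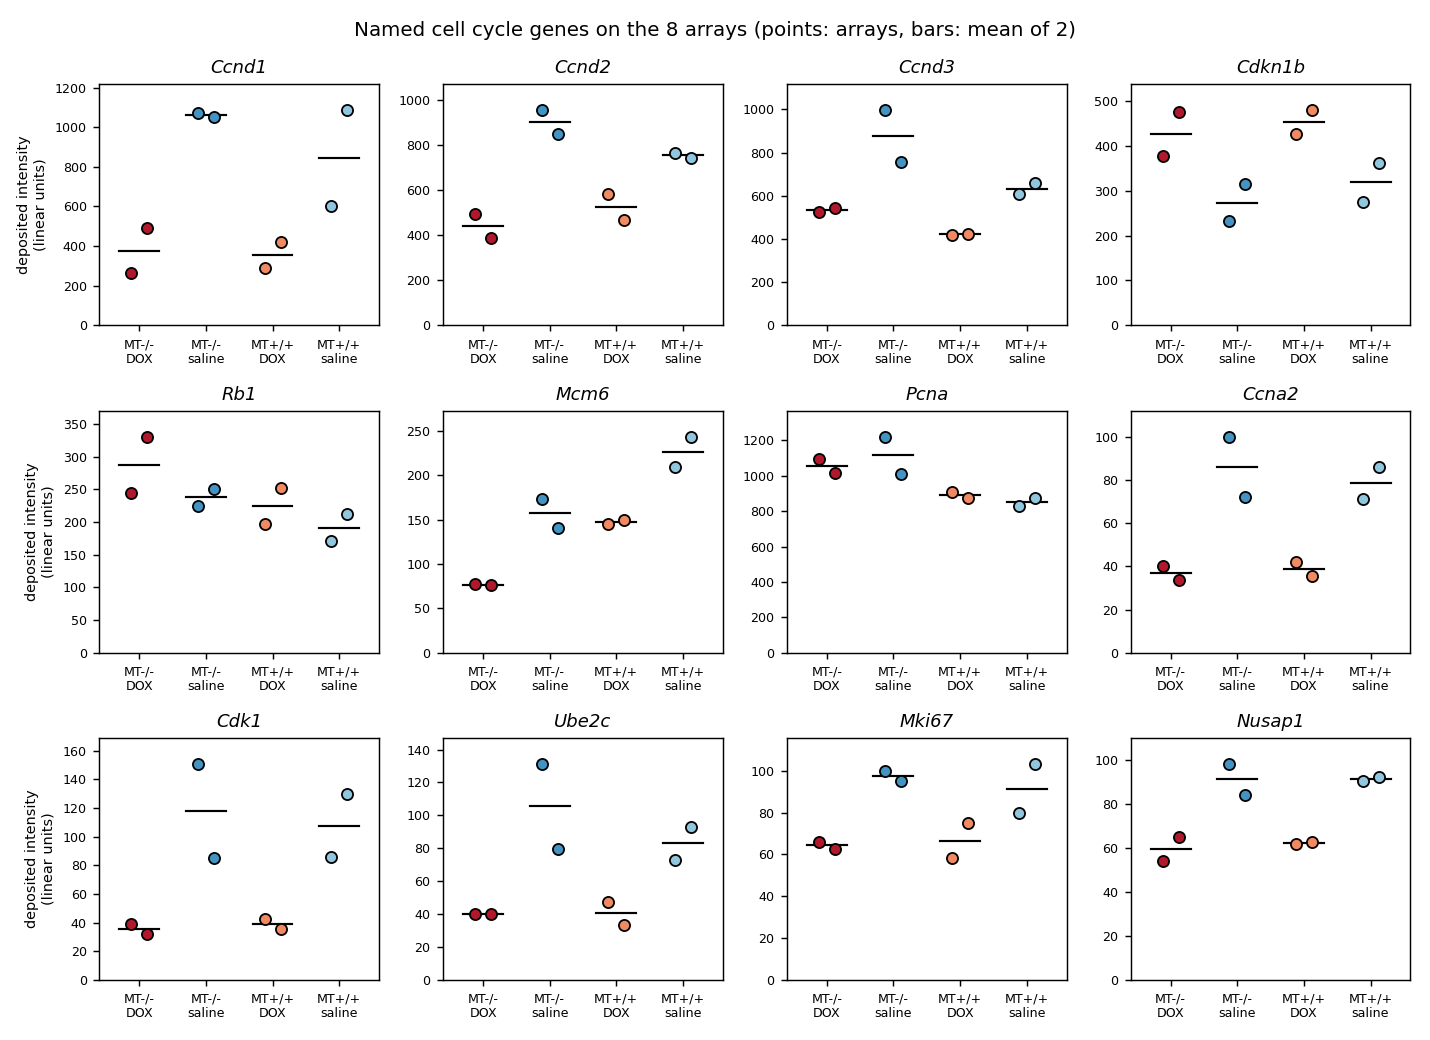
Deposited intensity (linear, arbitrary units, vertical axes from 0) of the 12 named member genes on each of the 8 arrays, by group, with points for single arrays and bars for the mean of 2. For Cdk1 the 4 DOX arrays lie between 31.9 and 42.4 and the saline arrays between 84.9 and 151.

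Among the genes of G1 control, the cyclins D were lower after DOX and p27 was higher. Ccnd1 encodes cyclin D1, the partner of CDK4 and CDK6. Ccnd1 read 264 and 490.1 on the arrays labelled MT-/- DOX, against 1072 and 1049.6 on those labelled MT-/- saline. On MT+/+ arrays it read 289 and 421 after DOX, against 603 and 1089 under saline. The DOX arrays all lay below the saline arrays, and the difference averaged over genotypes was log2 -1.38 ± 0.23 (standard error, 2 arrays per group, adjusted p 0.00606). Both further Ccnd1 probe sets that were tested passed too, at log2 -1.29 and -1.42.

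Ccnd2, cyclin D2, read 494 and 388 on the arrays labelled MT-/- DOX, against 957 and 849 on those labelled MT-/- saline. In wild-type hearts it read 582 and 466 after DOX, against 766 and 742 under saline. Again no DOX array reached a saline array, at log2 -0.79 ± 0.13 (adjusted p 0.00654), and 4 of its 6 further tested probe sets were lower at the threshold. Ccnd3, cyclin D3, had 526 and 543 on the arrays labelled MT-/- DOX, against 999 and 758 on those labelled MT-/- saline. The MT+/+ arrays had 419 and 425 after DOX, against 607 and 659.6 under saline, and here too the treatments did not overlap. Its difference was log2 -0.65 ± 0.12 (adjusted p 0.0106), but a dimmer tested Ccnd3 probe set stood at log2 0.23 with an adjusted p of 0.251, and for the mean of the probe sets the call was lost (log2 -0.21, adjusted p 0.196).

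Cdkn1b, which encodes the CDK inhibitor p27, was the 1 member that was higher. It read 378 and 475 on the arrays labelled MT-/- DOX, against 232 and 315 on those labelled MT-/- saline. MT+/+ hearts gave 426 and 480.3 after DOX, against 275 and 362 under saline. The treatments did not overlap, and the change of log2 0.55 ± 0.13 had an adjusted p of 0.0261. That call was lost when any of 5 arrays was left out (MT-/- DOX 2, MT-/- saline 1, MT+/+ DOX 1, MT+/+ DOX 2 or MT+/+ saline 1; adjusted p up to 0.106). Rb1 encodes the retinoblastoma protein, the substrate of cyclin D kinases. Rb1 read 244 and 331 on the arrays labelled MT-/- DOX, against 224 and 251 on those labelled MT-/- saline. In MT+/+ it read 197 and 252 after DOX, against 170.4 and 213 under saline. These ranges overlap, and the change of log2 0.23 ± 0.13 did not pass (adjusted p 0.293, 95% interval -0.06 to 0.52). Cdk4, the kinase partner, stood at log2 -0.30 ± 0.10 (adjusted p 0.0723) and Cdkn2c, the CDK4 and CDK6 inhibitor p18, at log2 0.05 ± 0.11 (0.848). E2f1, the transcription factor freed by RB1, fell under the intensity filter.

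The cyclin E and CDK2 step, which fires replication origins, gave no call among its 2 tested members. Ccne1, cyclin E1, stood at log2 0.15 ± 0.10 after DOX (adjusted p 0.397), and Cdk2 at log2 -0.11 ± 0.10 (0.566). A further tested Ccne1 probe set had the opposite sign, at log2 -0.26 (0.2). Their 95% intervals ran from -0.08 to 0.37 and from -0.33 to 0.12. Ccne2, cyclin E2, was under the filter, and the fit with no filter gave it -0.39 ± 0.10 (adjusted p 0.0496).

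Of the 8 tested replication genes, only Mcm6 passed. Mcm2 to Mcm7 encode the 6 subunits of one ring-shaped helicase, which is loaded at replication origins as a whole. Mcm6 read 77.3 and 75.7 on the arrays labelled MT-/- DOX, against 173 and 141 on those labelled MT-/- saline. On the MT+/+ arrays it read 145 and 149.9 after DOX, against 209 and 244 under saline. DOX arrays lay below saline arrays within each genotype, but the MT+/+ DOX arrays overlapped the MT-/- saline arrays. Averaged over genotypes the difference was log2 -0.73 ± 0.10 (adjusted p 0.00247).

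The other subunits did not pass the threshold and ran in both directions. The values were log2 -0.32 ± 0.10 for Mcm2 (adjusted p 0.0781), log2 0.14 ± 0.12 for Mcm3 (0.53) and log2 0.11 ± 0.08 for Mcm4 (0.408). Further tested probe sets stood at log2 -0.09 and -0.24 for Mcm3, the opposite sign, and at 0.22 for Mcm4 and -0.22 for Mcm2. Mcm5 stood at log2 -0.42 ± 0.12 (0.0521), while its other tested probe set was lower at log2 -0.70 (0.0152). Mcm7 stood at log2 0.35 ± 0.16 (0.216), with its other tested probe sets at log2 -0.29, 0.26 and 0.33. The difference between Mcm6 and its partner subunits was not tested.

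Pcna encodes the sliding clamp that holds DNA polymerase on its template. It read 1095 and 1017 on the arrays labelled MT-/- DOX, against 1221 and 1009.5 on those labelled MT-/- saline. MT+/+ arrays gave 906 and 873 after DOX, against 827 and 872 under saline. In MT-/- the treatments overlap, and in MT+/+ the deposited DOX values lay just above the saline values. The normalized values overlap in MT+/+ too, at a change of log2 -0.02 ± 0.16. The averaged change of log2 -0.04 ± 0.11 did not pass (adjusted p 0.868, 95% interval -0.30 to 0.21). Rrm1, the large subunit of ribonucleotide reductase, which makes deoxynucleotides, stood at log2 -0.12 ± 0.09 (0.414). Its partner Rrm2 and the thymidylate synthase gene Tyms were under the filter.

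**Figure D2:**
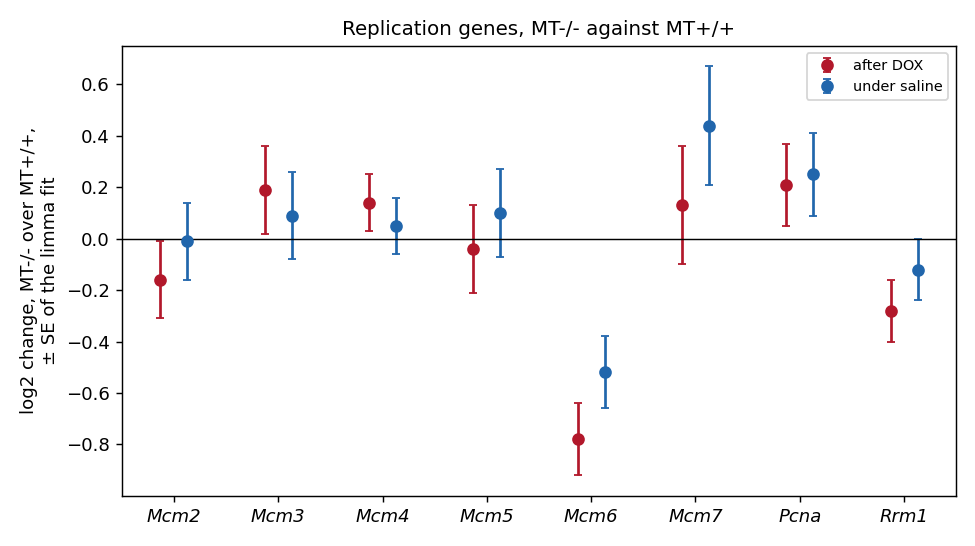
Log2 change between genotypes (MT-/- over MT+/+, vertical axis) of the 8 tested replication genes after DOX (red) and under saline (blue), with the standard error of the limma fit. Mcm6 lies furthest below 0 in both, at -0.78 and -0.52.

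Cyclin A2 and CDK1, which carry cells through S phase and into mitosis, were both lower after DOX. Both genes passed the filter on saline arrays only, which favours such a difference. Ccna2 read 40.1 and 33.5 on the arrays labelled MT-/- DOX, against 100.2 and 72.3 on those labelled MT-/- saline. MT+/+ hearts read 42.2 and 35.6 after DOX, against 71.5 and 86.1 under saline. No DOX array reached a saline array, and the difference was log2 -0.85 ± 0.13 (adjusted p 0.00412). Cdk1, the mitotic kinase, had 38.9 and 31.9 on the arrays labelled MT-/- DOX, against 151 and 84.9 on those labelled MT-/- saline. Wild-type arrays had 42.4 and 35.5 after DOX, against 85.5 and 129.8 under saline. The DOX arrays again lay under every saline array, at log2 -1.23 ± 0.19 (adjusted p 0.00421), below the array median on all 4. On the scale with 16 added to each value, a fold of such dim genes is understated. Cyclin B2, Ccnb2, was under the filter, and with no filter it stood at -0.76 ± 0.10 (adjusted p 0.00169).

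Of the 8 tested genes of mitosis, 3 were lower after DOX and the other 5 did not pass, against 7.81% lower of all tested genes. The 3, Ube2c, Mki67 and Nusap1, passed the filter on saline arrays only, which favours lower values after DOX, so this count is a description. Ube2c encodes the ubiquitin-conjugating enzyme of the anaphase-promoting complex, which marks cyclins for destruction. Ube2c read 40.0 and 39.8 on the arrays labelled MT-/- DOX, against 131 and 79.5 on those labelled MT-/- saline. In MT+/+ it read 47.5 and 33.2 after DOX, against 73.0 and 93.2 under saline. Every DOX array was under every saline array, at log2 -0.93 ± 0.16 (adjusted p 0.00749).

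Mki67 encodes Ki-67, a coat protein of mitotic chromosomes widely used to stain cycling cells. Its readings were 66.2 and 62.7 on the arrays labelled MT-/- DOX, against 100.1 and 95.3 on those labelled MT-/- saline. On MT+/+ arrays they were 58.3 and 74.9 after DOX, against 79.7 and 103 under saline. The treatments did not overlap and the difference was log2 -0.42 ± 0.11 (adjusted p 0.0416). The call was lost without any 1 array except MT+/+ saline 1, with an adjusted p up to 0.132. Nusap1, a spindle protein that binds microtubules, read 53.9 and 64.8 on the arrays labelled MT-/- DOX, against 98.3 and 84.2 on those labelled MT-/- saline. It read 61.8 and 62.9 after DOX, against 90.5 and 92.2 under saline on MT+/+ arrays. These values do not overlap either, at log2 -0.46 ± 0.09 (adjusted p 0.0132), and the call was lost without MT-/- saline 1 (0.0617).

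The other 5 tested mitosis genes did not pass, at log2 -0.44 to -0.05. Bub1b, a spindle checkpoint kinase, stood at log2 -0.06 ± 0.08 (adjusted p 0.687) and Cdc20, which activates the anaphase-promoting complex, at log2 -0.05 ± 0.13 (0.877). Tpx2, a spindle assembly factor, stood at log2 -0.20 ± 0.11 (0.316), and Prc1, which bundles microtubules between the separating chromosomes, at log2 -0.15 ± 0.11 (0.438). A dimmer Prc1 probe set under the filter was lower in the fit with no filter, at log2 -0.59 ± 0.09 (adjusted p 0.00407). Cenpa, the histone that marks centromeres, stood at log2 -0.44 ± 0.14 (0.0797). The remaining 7 mitosis members, Birc5, Bub1, Aurka, Aurkb, Plk1, Kif11 and Kif20a, were under the filter.

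The 12 members under the filter are E2f1, Ccne2, Rrm2, Tyms, Ccnb2 and these 7. In the fit with no filter, 2 of the 12, Ccne2 and Ccnb2, were lower by the probe set that stood for the gene, and 0 were higher. Counted by probe set, 24 of the 94 were lower and 1 higher, against 3.54% and 3.55% of all probe sets, and of the 45 under the filter 8 were lower and 0 higher. These 8 are 1 each of Ccne2, Mcm6, Rrm2, Ccna2, Ccnb2, Bub1, Prc1 and Kif11. Probe sets of 1 gene disagreed among them: for Rrm2 the 3 stood at log2 0.19, -0.37 and -0.79. For Tyms the 4 stood between log2 -0.06 and 0.05. Some called members also had a probe set under the filter that did not pass. These stood at log2 -0.03 for Nusap1 (adjusted p 0.918), 0.05 for Cdkn1b (0.906), 0.03 for Mcm6 (0.942) and 0.12 for Ccnd3 (0.56).

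**Figure D3:**
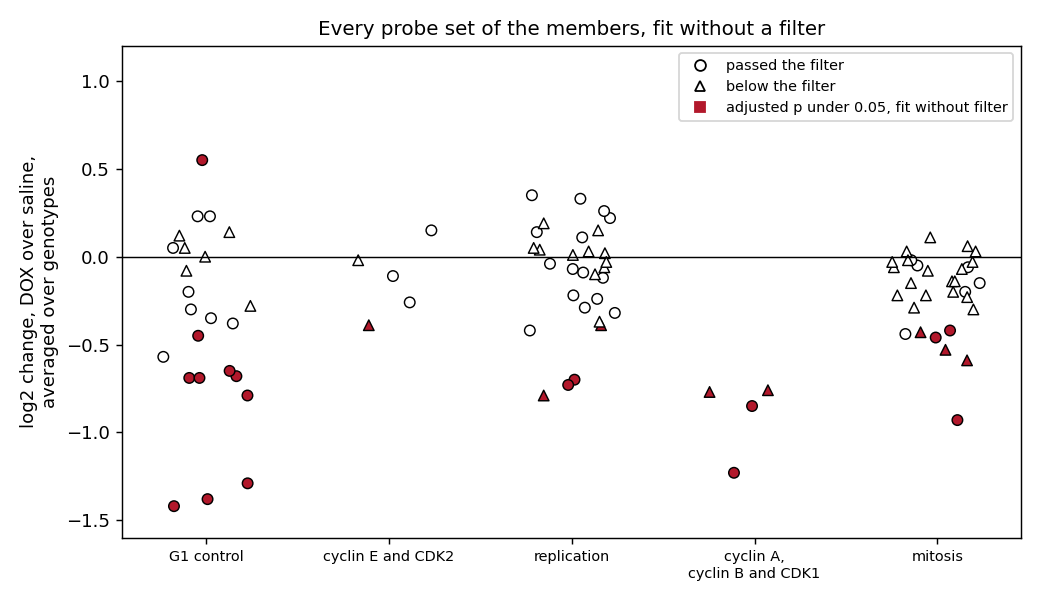
Log2 change after DOX averaged over genotypes (vertical axis) of all 94 member probe sets in the fit with no filter, by role, with circles for those that passed the filter and triangles for those under it. Red marks an adjusted p under 0.05, reached by 24 lower and 1 higher probe set.

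The normalized values on DOX and saline arrays did not overlap, with DOX lower, for 11 of the 27 tested members, against 10.1% of all tested genes. These 11 are the members called lower other than Mcm6 together with Cdk4, Mcm2 and Mcm5. Of them, Mcm5, Ccna2, Cdk1, Ube2c, Mki67 and Nusap1 passed the filter on saline arrays only, which favours such a separation. The counts of lower members here, also those with the block below, are thus a description. With DOX higher, 1 member did not overlap (Cdkn1b), against 9.92% of all tested genes. With the replicate number of the labels as a block, 13 members were lower and 2 higher, against 14.8% and 13.6% of all tested genes. The block added Cdk4 (adjusted p 0.0204), Mcm2 (0.0124), Mcm5 (0.023) and Cenpa (0.0084) as lower, and Mcm7 (0.0429) as higher.

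Within MT-/-, 6 members were lower after DOX and 0 higher, against 3.98% and 2.76% of all tested genes. They were Ccnd1 at -1.50 ± 0.32 (adjusted p 0.0317), Ccnd2 at -0.99 ± 0.19 (0.0202), Mcm6 at -0.87 ± 0.14 (0.0105), Ccna2 at -0.95 ± 0.18 (0.0208), Cdk1 at -1.33 ± 0.27 (0.0238) and Ube2c at -1.07 ± 0.23 (0.0313), in log2. Ccna2, Cdk1 and Ube2c passed the filter on saline arrays only, which favours lower values after DOX, so the count is a description. Without the array MT-/- saline 1, 0 of the 6 calls held, and without MT-/- DOX 2 only that of Ccnd1 did. Either leaves 1 array on that side, assumed to vary like the other groups, and the log2 values then ran from -0.71 to -1.42 without MT-/- saline 1 and from -0.78 to -1.89 without MT-/- DOX 2. The replicate block gave 12 lower and 1 higher, against 9.82% and 7.98% of all tested genes.

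Within MT+/+, 0 members passed by limma, against 2.68% of all tested genes in either direction, and 9 had an unadjusted p under 0.05, against 17.3% of all tested genes. The 2 further Ccnd1 probe sets did pass, at log2 -1.14 (adjusted p 0.0317) and -1.25 (0.0145), and no other of the 49 tested member probe sets did. The share of all tested probe sets that passed is not given here, so this is a description. The members furthest below 0 were Ccnd1 at -1.25 ± 0.32 (adjusted p 0.0879) by the probe set that stood for it and Cdk1 at -1.14 ± 0.27 (0.0664), in log2. The replicate block gave 7 lower (Ccnd1, Ccnd2, Ccnd3, Mcm6, Ccna2, Cdk1 and Ube2c, adjusted p 0.0077 to 0.0402) and 1 higher (Cdkn1b, 0.0326), against 5.62% and 6.18% of all tested genes.

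The genotypes were then set against each other for the size of the DOX difference. It had the same sign in both genotypes for 25 of the 27 tested members, 18 below 0 and 7 above, which is 92.6%, against 71.4% of all tested genes. Of the 27, 6 passed the filter on saline arrays only, which favours values below 0, so this share is a description. For all 9 members called lower, the value was further below 0 in MT-/- than in MT+/+, with gaps from log2 -0.39 (Ccnd2) to -0.02 (Ccnd3). The share of all genes called lower with such a gap was not counted. The value in MT-/- was the lower one for 18 of the 27 tested members and for 6561 of the 13008 tested genes. None of these gaps passed: the interaction, the DOX difference in MT-/- minus that in MT+/+, had an adjusted p of 1 for each of the 27, and 0 members had an unadjusted p under 0.05, against 2.5% of all tested genes, of which 0% passed the adjusted threshold. For Cdk1 it was log2 -0.20 ± 0.38 with a 95% interval of -1.05 to 0.66, and for Ccnd1 log2 -0.24 ± 0.46 with -1.28 to 0.80. For Ube2c the interval was -1.02 to 0.46. Intervals of this width do not show that the genotypes responded alike.

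**Figure D4:**
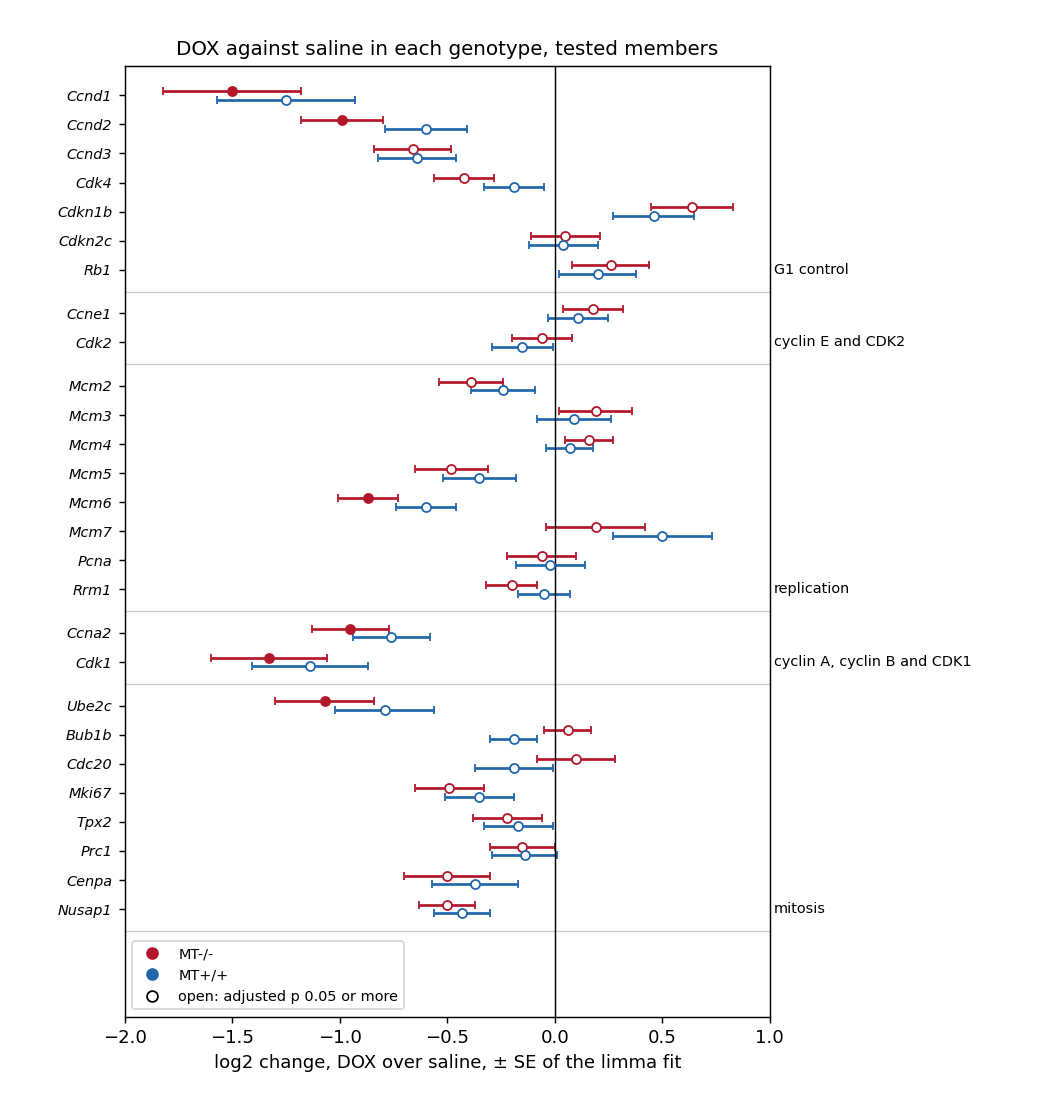
Log2 change of DOX over saline (horizontal axis) for each of the 27 tested members in MT-/- (red) and MT+/+ (blue), grouped by role, with the standard error of the limma fit and filled points at an adjusted p under 0.05. The filled points are the 6 calls in MT-/-, and 0 points are filled in MT+/+.

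Mcm6 was the 1 member that differed between the labelled genotypes. Averaged over treatments it was lower on the arrays labelled MT-/-, at log2 -0.65 ± 0.10 (adjusted p 0.0255), against 0.484% of all tested genes called lower. The 4 MT-/- arrays ranged from 75.7 to 173 and the 4 MT+/+ arrays from 145 to 244, so the genotypes overlap over both treatments but not within either. After DOX the difference was -0.78 ± 0.14 (0.0842, or 0.0203 with the replicate block, against 0.746% of all tested genes lower) and under saline -0.52 ± 0.14 (0.365), in log2. Averaged over treatments in the limma fit with no filter, the Mcm6 probe sets under the filter stood at log2 -0.46 (adjusted p 0.108) and 0.04 (0.937). The averaged call was lost without any 1 of 6 arrays (MT-/- DOX 1, MT-/- DOX 2, MT-/- saline 2, MT+/+ DOX 1, MT+/+ DOX 2 and MT+/+ saline 2), with adjusted p from 0.0602 to 0.108.

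The other 26 tested members did not pass between genotypes, at log2 -0.30 to 0.32 averaged over treatments. By limma, 0 of 27 passed after DOX and 0 under saline, against 0.292% and 0.177% of all tested genes. At an unadjusted p under 0.05 there was 1 member each, Mcm6, against 7.72% and 8.65% of all tested genes. With the replicate block, Tpx2 was also lower in MT-/- averaged over treatments (log2 -0.30, adjusted p 0.0466), against 2.63% of all tested genes. As Mt1 signal was present on the arrays labelled MT-/-, these directions follow the labels only.

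Further genes of the same processes were read from 3 lists. Of 39 tested further replication genes (46 listed), 3 were lower and 1 higher after DOX, against 7.81% lower and 6.98% higher of all tested genes. Their median log2 change was 0.02. The 4 were Rpa3, a subunit of the protein that coats single-stranded DNA, at log2 -0.94 ± 0.17 (adjusted p 0.00771), Dut, which removes dUTP, at log2 -0.57 ± 0.12 (0.0132), and the clamp loader subunits Rfc2 at log2 -0.37 ± 0.10 (0.0378) and Rfc1 at log2 0.60 ± 0.12 (0.0122).

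Of 30 tested further mitosis genes (50 listed), 5 were lower and 0 higher, with a median of -0.07, against 7.81% and 6.98% of all tested genes. They include the CDK1-binding subunits Cks2 at log2 -1.01 ± 0.14 (adjusted p 0.0025) and Cks1b at log2 -0.70 ± 0.18 (0.0332). The kinetochore protein Cenpf stood at log2 -0.67 ± 0.10 (0.00319) and Incenp, which anchors Aurora B, at log2 -0.44 ± 0.10 (0.0203).

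Of 31 tested further regulators (38 listed), 3 were higher and 2 lower, with a median of -0.07. Cdkn1a, the p53-induced CDK inhibitor p21, rose by log2 1.37 ± 0.21 (adjusted p 0.00394) and Tfdp2, a dimer partner of E2F factors, by log2 1.71 ± 0.22 (0.00194). Ccng1, cyclin G1, also known as a p53 target, was lower at log2 -0.72 ± 0.10 (0.00253), and Mnat1, a subunit of the CDK-activating kinase, higher at log2 0.33 ± 0.08 (0.0265). All tested genes had a median of -0.01, with 7.81% lower and 6.98% higher.

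**Figure D5:**
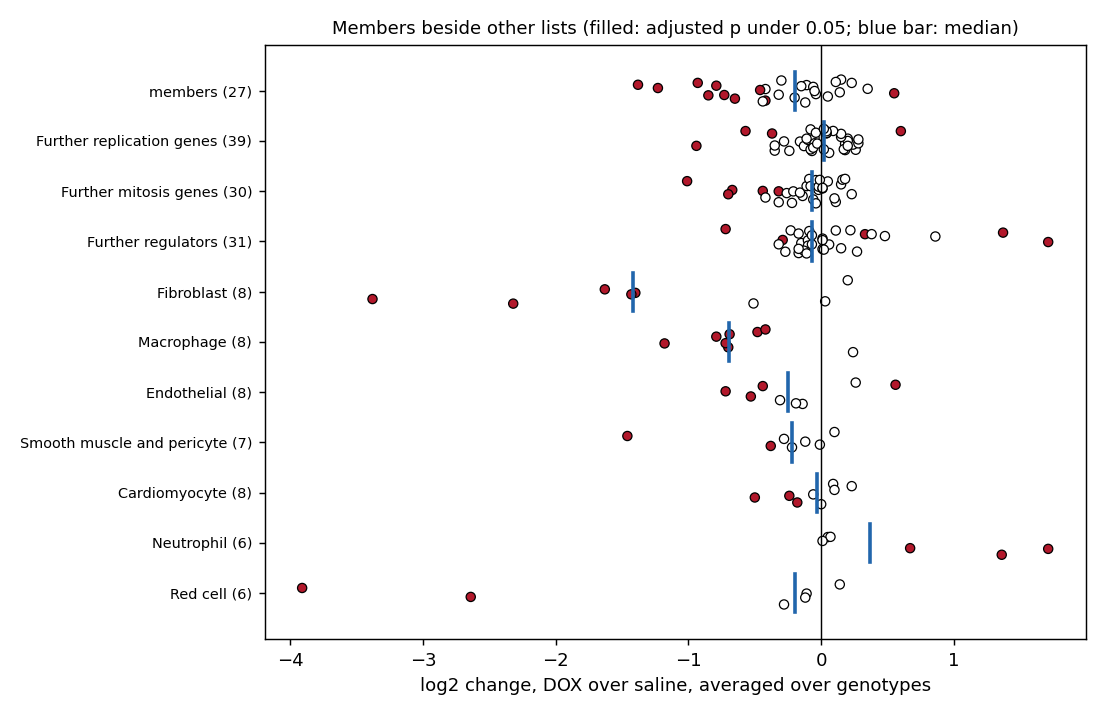
Log2 change of DOX over saline averaged over genotypes (horizontal axis) for the 27 tested members, the 3 further lists and 7 lists of cell type markers, 1 point a gene, filled at an adjusted p under 0.05, with a blue bar at each median. The members' median is -0.20, that of the fibroblast markers -1.41 and that of the macrophage markers -0.69.

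Markers of several cell types moved with DOX in the same arrays, where 7.81% of all tested genes were lower and 6.98% higher. Of 8 fibroblast markers, 5 were lower after DOX and 0 higher, and their summed intensity ranged from 9910 to 11488 on the DOX arrays, against 15635 to 19824 on the saline arrays. Of 8 macrophage markers, 7 were lower and 0 higher, with sums from 4242 to 5828 on the DOX arrays, against 7693 to 9497 on the saline arrays. Endothelial markers had 3 lower and 1 higher of 8, with sums from 6741 to 7933, against 8627 to 9690. Smooth muscle and pericyte markers had 2 lower of 7 tested, with sums from 9801 to 12214, against 12999 to 16972.

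Red cell markers had 2 lower of 6 tested, with sums from 435 to 516 on the DOX arrays, against 1194 to 1913 on the saline arrays. Neutrophil markers had 3 higher of 6 tested, with sums from 3197 to 3960 on the arrays labelled MT-/- DOX, against 955 to 979 on those labelled MT-/- saline, and from 1262 to 1319 on MT+/+ DOX, against 1192 to 1730 on MT+/+ saline. Of the 8 lymphocyte markers 6 were found by symbol, 5 of them under the filter, and the 1 tested was not called. Cardiomyocyte markers had 3 lower of 8 with a median of -0.03. The actin 3' to 5' signal ratio, a sign of RNA integrity, ran from 0.913 to 1.18 on the DOX arrays and from 1.14 to 1.24 on the saline arrays, and that of Gapdh from 0.984 to 1.05 over all arrays. The part of these marker and RNA quality values in the cell cycle results was not tested.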

How the data were processed

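Total RNA of whole hearts, extracted with Trizol per the labels' protocols, was measured on 8 arrays in 4 groups of 2 biological replicates, taken from the labels. The deposited values are 1 linear intensity per probe set and array, made by the authors with GCOS 1.4 per the submitters' processing notes. The sources used here do not give the signal algorithm, the scaling or the detection calls. Per-array intensities in the text are the deposited ones.

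For the tests, 64 control probe sets were left out, arrays were quantile-normalized, and log2(intensity + 16) was taken. Probe sets at or above the array median on at least 2 of 8 arrays, 24751 in all, were fitted with limma 3.58.1 in R 4.3.3 on 4 group means (eBayes with a trend, 4 residual degrees of freedom) for 7 comparisons. P-values are two-sided with Benjamini-Hochberg adjustment over all 24751 probe sets, at a threshold of 0.05. In the fit with no filter, the adjustment is over all 45037 probe sets that are not controls. Intervals are the fit's 95% intervals. A fold change on this scale understates that of dim genes. The script was tested on simulated data. With 2 arrays a group, an exact test of 2 against 2 cannot go below p 0.333, so none was made, and the number of arrays limits the precision.

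Gene names come from the platform annotation, and probe sets with several symbols name no gene. The members, lists and markers were chosen with earlier results of these data known. Values on every array are given for members past the threshold in any comparison and for Mki67, Pcna, Cdk1, Ccnd1, Cdkn1b and Rb1, other members by fitted values, counts or ranges, and each further list by up to 4 genes with the smallest p.

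The labels number the replicates in each group. Deviations of same-numbered arrays from their group means correlated at 0.36 to 0.54 in all 6 pairs of groups, so the fit with the replicate number as a block is given where it changes a call. No label says what the numbers share. The alternatives tried were the deposited scaling, median centring, pseudocounts of 1 and 64, no filter or a filter on all 8 arrays, the mean of a gene's probe sets, eBayes without the trend, only the compared groups, the replicate block, and each array left out.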

Additional observations from a re-analysis of the deposited data

Results flagged for a closer look

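Bub1b, a spindle checkpoint kinase, was singled out because every array moved one way in MT-/- and the opposite way in MT+/+. It read 173 and 178 on the arrays labelled MT-/- DOX, against 166 and 172 on those labelled MT-/- saline, and 162 and 154 on the MT+/+ DOX arrays, against 179 and 181 on the MT+/+ saline arrays. The DOX difference was log2 0.06 in MT-/- (adjusted p 0.832 by limma) and log2 -0.19 in MT+/+ (0.46). The one in MT-/- exceeded that in MT+/+ by 0.25. The genotype difference after DOX minus that under saline is the same contrast, so it adds no further observation. The pattern was looked for in each of the 27 tested members, and its share among all tested genes was not counted. The interaction did not pass in the limma fit (adjusted p 1).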

How the results depend on the processing

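After DOX averaged over genotypes, 10 members were called, and 7 to 10 when 1 array was left out. A filter that asks for the median on all 8 arrays left 19 members to test and 4 calls, since Mcm6, Ccna2, Cdk1, Ube2c, Mki67 and Nusap1 are then not tested. In MT-/- the 6 calls became 2 with that filter and 0 to 6 with 1 array left out, where a side left with 1 array is assumed to vary like the other groups. In MT+/+ the count of 0 became 1 with no filter (Ccnb2), 1 with the mean of probe sets (Ccnd1), 1 with only the compared groups (Cdk1), and 0 to 0 with 1 array left out. Between genotypes averaged over treatments, the 1 call (Mcm6) became 0 with the filter on all 8 arrays and 0 to 1 with 1 array left out. For the losses and gains other than those of the filter, the cause was not tested. With the replicate block, the paired fit gave 15 calls after DOX averaged, 13 in MT-/-, 8 in MT+/+, 2 between genotypes averaged over treatments and 1 after DOX, and it changed no call under saline or in the interaction. No member's called change reversed its sign under any alternative run. Dim probe sets limit the reading: of the called members, Cdk1, Ccna2, Ube2c, Mki67 and Nusap1 lay below the array median on all 4 DOX arrays.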
